A study of Homo sapiens with 22 samples.

Results

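Autophagy is the route by which a cell encloses part of its own cytoplasm in a double membrane, the autophagosome, and delivers it to the lysosome for breakdown. The mRNA of 10 genes of this route was followed here: SQSTM1, MAP1LC3B, GABARAPL1, GABARAPL2, ULK1, WIPI1, ATG5, ATG7, ATG16L1 and BECN1. They were taken by symbol from the 20411 genes of each deposited mRNA-seq table, and all 10 were present in both tables. Cells of MOLM-13, a line of acute myeloid leukemia, and of NB4, a line of acute promyelocytic leukemia, both labelled wild type, were each treated with 2 μM FP54 or with the solvent DMSO for 48 hours, with 3 libraries per treatment and line. FP54 is a proteolysis-targeting chimera, a molecule that brings the m6A demethylase FTO to the VHL ubiquitin ligase so that FTO protein is degraded, and it was given as an ester prodrug. Each line is a single established culture, and the labels do not say whether the 3 libraries of a group came from separate cultures, so p-values measure the spread between these libraries, which may be technical. The labels give no batch or date, and the cell line of each table rests on the name of the table, since its columns give treatment and replicate number.

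Values are RPKM, which is a read count divided by gene length and library total. The library totals implied by the RPKM were 16299707 to 17346925 reads in MOLM-13 with DMSO and 5829731 to 19191060 with FP54, where FP54 replicate 2 was the shallowest. In NB4 these totals were 20654065 to 22344287 with DMSO and 10595669 to 13071330 with FP54, so every NB4 library with FP54 was shallower than every one with DMSO. Of the markers of myeloid cells, PTPRC, CD33, SPI1 and CEBPA were at 7.70 RPKM or more in all 12 libraries. HOXA9, MEIS1 and FLT3, looked for in MOLM-13, were higher in every library of that table than in any of the NB4 table. MPO lay between 1082 and 2263 RPKM in the NB4 table and between 3.29 and 18.1 RPKM in the MOLM-13 table. The granule genes ELANE, PRTN3 and AZU1, looked for as markers of promyelocytes, did not follow the NB4 label: ELANE was at 0 to 0.218 RPKM in the NB4 table and at 122 to 240 RPKM in the MOLM-13 table. Of 11 markers of lymphocytes, erythroid cells, epithelium and fibroblasts, KRT18 passed 1 RPKM in every library, and CD3D, at 6.0 to 10.5 RPKM, and EPCAM, at 7.83 to 11.3 RPKM, did so in the NB4 table alone. Their part in the results was not tested.

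In outline, the ULK1 kinase complex starts autophagy, and a lipid kinase complex built around Beclin 1, the product of BECN1, then marks the membrane with a phosphoinositide that WIPI proteins read. ATG7 and the complex of ATG5, ATG12 and ATG16L1 attach proteins of the ATG8 family, which are the LC3 and GABARAP proteins, to the growing membrane. Cargo receptors such as p62, the product of SQSTM1, bind both ubiquitinated cargo and ATG8 proteins, and are themselves broken down with the cargo. The level of an mRNA therefore does not give the rate of the process, which was not measured in these files.

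Sequences are shown where they bear on how the values can be read. MAP1LC3B and its copy MAP1LC3B2 have coding sequences of 375 bases each, of which 373 are identical (99.5%) in the Ensembl canonical transcripts of GENCODE. The substitutions are C30G and A338G, with the MAP1LC3B base first, the position counted from 1 at the A of the start codon, and the MAP1LC3B2 base last. Windows of 30 coding bases around them, from GRCh38, are given with the differing base in capitals. MAP1LC3B lies on chromosome 16 (87383953 to 87404779, plus strand) and MAP1LC3B2 on chromosome 12 (116548105 to 116576606, plus strand).
MAP1LC3B, coding bases 16 to 45: accttcaagcagcgCcgcaccttcgaacaa
MAP1LC3B2, coding bases 16 to 45: accttcaagcagcgGcgcaccttcgaacaa
MAP1LC3B, coding bases 324 to 353: cctgtacatggtctAtgcctcccaggagac
MAP1LC3B2, coding bases 324 to 353: cctgtacatggtctGtgcctcccaggagac
A read from the coding part that covers neither position is the same for both genes, so reads could have been split between them, and their separate levels are uncertain.

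Promoters of the 10 genes, from 250 bases before to 50 bases after each start, were read from RefSeq (GRCh38.p14). All 10 genes matched, with 13 promoters in all, since SQSTM1 has 3 starts and ATG5 has 2. Both strands were searched for 5 motifs. The cAMP response element TGACGTCA was found in the GABARAPL1 promoter alone of the 13, from 30 to 23 bases before the start, and 2.28% of 21519 promoters of genes in the tables hold it. The core of the antioxidant response element, TGACNNNGC, was found in the MAP1LC3B promoter alone of the 13, from 46 to 38 bases before the start, and 13.8% of the same promoters hold it. These windows show the match in capitals.
GABARAPL1, chr12:10212836-10212865, plus strand: ggctcgcggggTGACGTCAcagcccgacgc
MAP1LC3B, chr16:87392280-87392309, plus strand: gcgagtcaccTGACCAGGCtgcgggctgag
In GENCODE, whose starts reach further upstream for both genes, the GABARAPL1 window overlaps an exon in 2 of the 5 transcripts that span it and the MAP1LC3B window overlaps an exon of the 1 transcript that spans it, with no coding base in either. The CLEAR core TCACGTGA, which is the site read by TFEB and TFE3, the CHOP-ATF4 composite core TGATGNAA and the AP-1 site TGANTCA, held by 1.3%, 2.72% and 6.16% of promoters, had no match in the 13, which says no more than that these letters are not in these windows. A match is a string of letters and was not tested for binding, and the antioxidant response element core and the AP-1 site can overlap.

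In MOLM-13, mRNA of 2 of the 10 genes, SQSTM1 and GABARAPL1, rose with FP54, and the 8 others did not pass the test. In NB4, mRNA of 6 of the 10 rose: WIPI1, GABARAPL1, SQSTM1, MAP1LC3B, ATG7 and ULK1, by 1.46 to 3.02 times. To be called, a gene needed a limma p under 0.01 and a change of 0.5 or more on the log2 scale, computed on log2(RPKM + 0.1), which understates the change of genes with low levels. All 10 genes passed the filter of a mean of at least 1 RPKM in both tables. Over all 9710 genes tested in MOLM-13, 9.3% were called higher and 9.04% lower, and over all 9853 tested in NB4, 18.6% were called higher and 10.7% lower. None of the 10 was called lower by limma in either line, none was lower at an unadjusted p below 0.05, and limma-voom on the recovered reads gave the same count of 0. The share of all genes at an unadjusted p below 0.05 was not computed, so counts at that threshold, here and below, have no such share beside them. At an adjusted p below 0.05, 905 of all 9710 genes were lower in MOLM-13 and 2164 of all 9853 in NB4. The median log2 fold change of the 10 was 0.21 in MOLM-13 and 0.59 in NB4, beside medians of 0.0033 and 0.07 over all genes tested. In bulk RNA, a change in the level of an mRNA per cell and a change in the share of cells that carry it cannot be told apart.

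**Figure D1:**
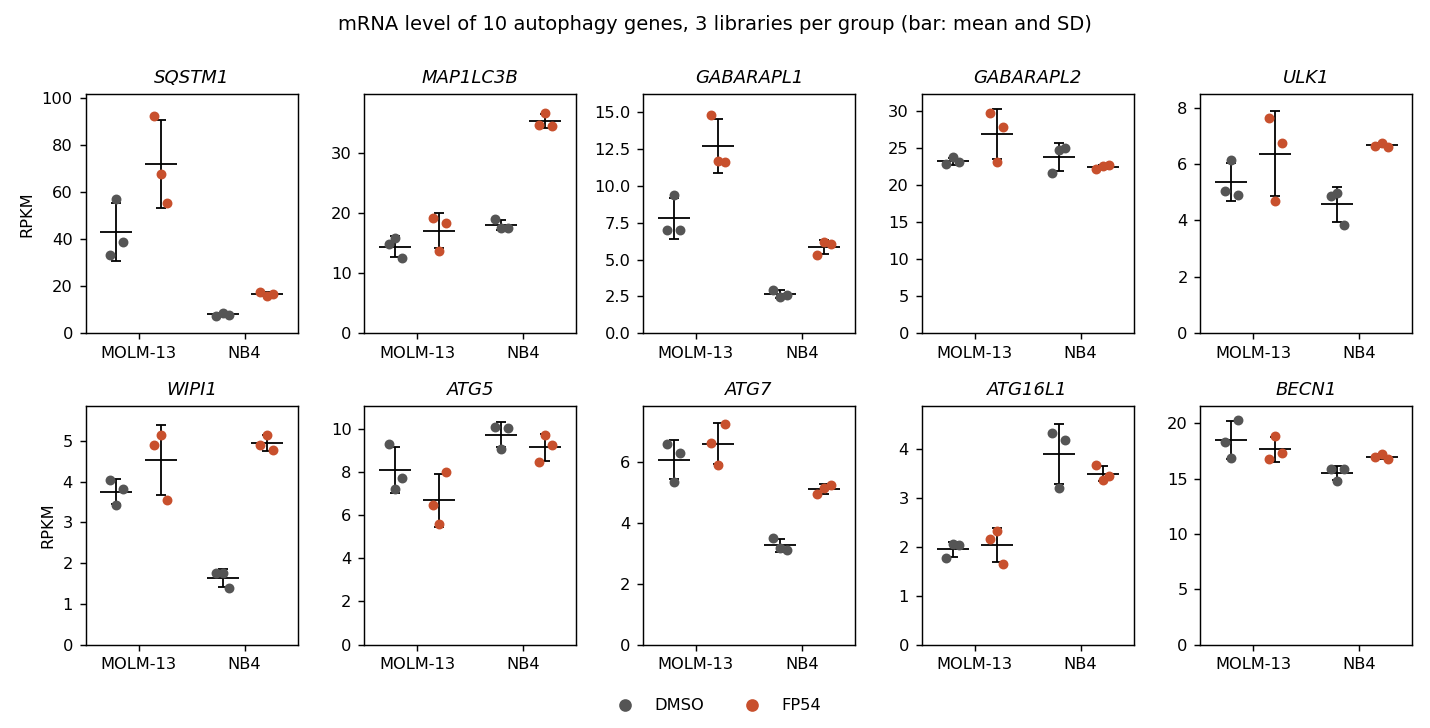
RPKM (vertical axis, from 0) of each of the 10 genes in the 12 libraries, 1 panel per gene. Points are libraries (grey, DMSO; red, FP54), and the bars give the mean and SD of 3. In NB4 the points with FP54 lie clear above those with DMSO for SQSTM1, MAP1LC3B, GABARAPL1, ULK1, WIPI1, ATG7 and BECN1, while in MOLM-13 GABARAPL1 alone shows this.

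The 3 libraries with FP54 all lay above the 3 with DMSO for 1 of the 10 genes in MOLM-13, where 20.2% of all genes tested did so, and for 7 of the 10 in NB4, where 34.3% did so. In the opposite direction, 17% of all genes in MOLM-13 and 26.2% in NB4 had every FP54 library below every DMSO library, and none of the 10 did. In NB4 the mean level of 416 olfactory receptor genes, a class mostly silent outside the nose, was 0.0496 to 0.0549 RPKM with FP54 and 0.00168 to 0.00372 RPKM with DMSO. After that level was subtracted from each library, the same counts were called: 2 of the 10 in MOLM-13 and 6 of the 10 in NB4. The lowest value of the 10 genes was 1.38 RPKM, for WIPI1 in NB4 DMSO replicate 3. The level subtracted was far below this, so the subtraction could hardly change these counts.

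SQSTM1 encodes p62, a receptor that links ubiquitinated cargo to the autophagosome and also binds KEAP1, the inhibitor of the transcription factor NRF2. It spans chromosome 5, 179806398 to 179838078, on the plus strand (GRCh38). In MOLM-13 with DMSO, SQSTM1 stood at 33.3, 56.8 and 38.7 RPKM in replicates 1 to 3, and with FP54 at 92.3, 67.6 and 55.4 RPKM. DMSO replicate 2 was above FP54 replicate 3, so the groups overlapped, and FP54 replicate 1 was the highest of the 6. The log2 fold change was 0.75 (SE 0.23), with an adjusted p of 0.0462. The SQSTM1 call in MOLM-13 was lost without DMSO replicate 1, DMSO replicate 3, FP54 replicate 1 or FP54 replicate 2, with log2 fold changes of 0.58, 0.69, 0.55 and 0.77.

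In NB4 the SQSTM1 level was several times lower than in MOLM-13, at 7.49, 8.56 and 7.91 RPKM with DMSO, and the levels with FP54 were 17.6, 15.7 and 16.5 RPKM. The groups were far apart, and SQSTM1 rose 2.08 times, a log2 fold change of 1.05 (SE 0.09, adjusted p = 1.01e-05). The tables were normalized separately, so levels in the lines stand side by side with no test. Exons of SQSTM1 share 1582 of 7535 bases with MRNIP on the opposite strand, and the sources used here do not say whether reads were counted by strand. MRNIP was at 0.404 RPKM with DMSO and 0.703 RPKM with FP54 in NB4, and at 0.701 and 1.38 RPKM in MOLM-13, far below SQSTM1 in both.

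MAP1LC3B encodes LC3B, the ATG8 protein most used to mark autophagosomes. It shares 60 of 5037 exonic bases with FBXO31 on the other strand. In MOLM-13 its mRNA lay at 15.0, 15.8 and 12.5 RPKM with DMSO and at 19.3, 13.7 and 18.4 RPKM with FP54. FP54 replicate 2, the shallowest library, lay among the DMSO values, and the difference did not pass the test (log2 fold change 0.24, 95% interval -0.14 to 0.61, adjusted p = 0.344). In NB4 MAP1LC3B lay at 19.0, 17.6 and 17.5 RPKM with DMSO and at 34.7, 36.7 and 34.6 RPKM with FP54. The NB4 groups did not overlap and varied little, with a coefficient of variation of 4.71% with DMSO and 3.37% with FP54. MAP1LC3B rose 1.96 times in NB4, a log2 fold change of 0.97 (SE 0.08, adjusted p = 6.85e-06). The near-identical MAP1LC3B2 shown above was at 0.755 ± 0.157 RPKM with DMSO and 3.09 ± 0.293 RPKM with FP54 in NB4 (SD, n = 3), on 27 to 80 reads per library. Its log2 fold change was 1.91 (SE 0.16, adjusted p = 6.38e-06), and how much of it is MAP1LC3B reads placed on the copy was not tested.

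GABARAPL1 and GABARAPL2 encode ATG8 proteins of the GABARAP branch, which act mostly in later steps of autophagosome formation and in cargo capture. GABARAPL1 lies on chromosome 12, 10212458 to 10223128, and GABARAPL2 on chromosome 16, 75566375 to 75577881, both on the plus strand. GABARAPL1 shares 329 of 4053 exonic bases with GABARAPL1-AS1, a noncoding gene on the other strand. Their coding sequences are 61.8% identical, against 99.5% for the LC3B copies. In MOLM-13 GABARAPL1 lay at 7.00, 9.42 and 7.00 RPKM with DMSO and at 14.8, 11.7 and 11.6 RPKM with FP54. All 3 FP54 values were above all 3 DMSO values, and GABARAPL1 rose by 0.70 on the log2 scale (SE 0.17, adjusted p = 0.0211). This call was lost without DMSO replicate 1, DMSO replicate 3 or FP54 replicate 1, with log2 fold changes of 0.63, 0.63 and 0.59, and held at 0.76 without the shallow FP54 replicate 2.

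In NB4 GABARAPL1 was lower throughout, at 2.96, 2.44 and 2.59 RPKM with DMSO and at 5.33, 6.17 and 6.06 RPKM with FP54. The groups did not overlap, and GABARAPL1 rose 2.19 times, a log2 fold change of 1.11 (SE 0.12, adjusted p = 3.04e-05). GABARAPL2 behaved otherwise. In MOLM-13 it lay at 22.8, 23.7 and 23.1 RPKM with DMSO and at 29.6, 23.0 and 27.8 RPKM with FP54. The groups overlapped through FP54 replicate 2, and the log2 fold change of 0.20 (95% interval -0.11 to 0.51) did not pass the test. In NB4 GABARAPL2 lay at 21.6, 24.7 and 25.0 RPKM with DMSO and at 22.1, 22.5 and 22.7 RPKM with FP54, a log2 fold change of -0.08 (95% interval -0.27 to 0.11).

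RPKM is scaled by gene length, so the 7 ATG8 family genes were summed within a library. The shares of the genes depend on the length used. MAP1LC3B has 5037 exonic bases and GABARAPL2 3010, against 2147 and 974 in their canonical transcripts. In NB4 the sum was 54.3 ± 0.442 RPKM with DMSO and 78.4 ± 2.22 RPKM with FP54 (SD, n = 3). MAP1LC3B made up 33.3 ± 1.81% of it with DMSO and 45.1 ± 0.281% with FP54, while the share of GABARAPL2 was 43.8 ± 3.17% with DMSO and 28.6 ± 0.801% with FP54. The groups did not overlap in either share. GABARAPL2 itself had a log2 fold change of -0.08 in NB4, and a share also falls when the sum rises. By RPKM, GABARAPL2 was the most abundant ATG8 mRNA of NB4 cells with DMSO and MAP1LC3B the most abundant with FP54, in every library. GABARAPL1 made up 4.92% with DMSO and 7.46% with FP54, and GABARAP 16.6% and 14.7%. MAP1LC3A was listed at 0 in all 6 NB4 libraries.

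In MOLM-13 the sum was 63.3 ± 3.28 RPKM with DMSO and 83.4 ± 11 RPKM with FP54. GABARAPL2 led in every MOLM-13 library, with 36.7 ± 2.11% of the sum with DMSO and 32.2 ± 0.222% with FP54, and the groups did not overlap in this share. MAP1LC3B made up 22.7 ± 1.76% with DMSO and 20.4 ± 1.07% with FP54, with overlapping groups. GABARAP, looked at for this sum, was called in MOLM-13, from 15.4 ± 2.37 to 23.8 ± 3.15 RPKM (log2 fold change 0.63, adjusted p = 0.0258), a call lost without DMSO replicates 2 or 3 or FP54 replicates 1 or 3, at 0.54 to 0.59. In NB4 GABARAP went from 9.03 ± 0.393 to 11.6 ± 1.0 RPKM, a log2 fold change of 0.35 with an adjusted p of 0.0113, which is under the minimum fold. The GABARAP difference, NB4 minus MOLM-13, was -0.28 (95% interval -0.68 to 0.13, adjusted p = 0.366) and did not pass the test.

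**Figure D2:**
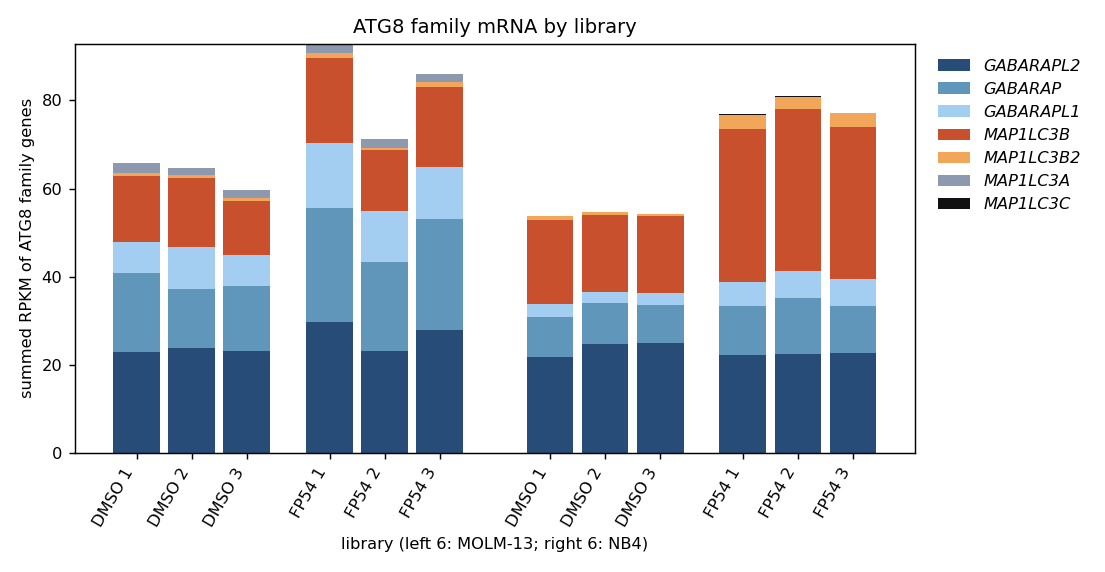
Summed RPKM of the 7 ATG8 family genes (vertical axis, from 0), stacked by gene, in each library (left 6, MOLM-13; right 6, NB4). The NB4 bars are higher with FP54 (mean 78.4 RPKM) than with DMSO (54.3 RPKM), and the MAP1LC3B segment widens while the GABARAPL2 segment keeps its height.

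ULK1 encodes the kinase that starts autophagy and is held in check by mTORC1. It lies on chromosome 12, 131894622 to 131923150, on the plus strand, and shares no exon with a gene on the other strand. In MOLM-13 ULK1 lay at 5.05, 6.15 and 4.89 RPKM with DMSO and at 7.64, 4.70 and 6.74 RPKM with FP54. FP54 replicate 2 was the lowest of the 6 and the other FP54 libraries the highest, and the log2 fold change of 0.22 (95% interval -0.22 to 0.66) did not pass the test. In NB4 it lay at 4.85, 4.99 and 3.85 RPKM with DMSO and at 6.63, 6.75 and 6.62 RPKM with FP54. The groups did not overlap, and ULK1 rose 1.46 times, a log2 fold change of 0.55 (SE 0.12, adjusted p = 0.00272). It stood close to the minimum fold: the log2 fold change was 0.47 with a pseudocount of 1, 0.48 with median-ratio scaling, 0.38 with quantile normalization and 0.43 without DMSO replicate 3, all under 0.5.

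BECN1 encodes Beclin 1, a core subunit of the lipid kinase complex. It lies on chromosome 17, 42810134 to 42833350, on the minus strand, and shares 795 exonic bases with CNTD1 and 300 with PSME3 on the other strand. BECN1 varied little between libraries. In MOLM-13 it lay at 18.3, 16.9 and 20.3 RPKM with DMSO and at 16.7, 18.9 and 17.3 RPKM with FP54. In NB4 it lay at 15.9, 14.8 and 15.9 RPKM with DMSO and at 17.0, 17.2 and 16.7 RPKM with FP54. The NB4 groups did not overlap, yet the log2 fold change was 0.13 (95% interval -0.05 to 0.30, adjusted p = 0.213), and in MOLM-13 it was -0.06 (95% interval -0.37 to 0.24).

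WIPI1 encodes a protein that binds the phosphoinositide made by that complex at the forming autophagosome. In MOLM-13 WIPI1 lay at 4.03, 3.43 and 3.81 RPKM with DMSO and at 4.90, 5.14 and 3.54 RPKM with FP54. FP54 replicates 1 and 2 were the highest of the 6, FP54 replicate 3 lay among the DMSO values, and the log2 fold change of 0.25 (95% interval -0.16 to 0.65) did not pass the test. In NB4 WIPI1 lay at 1.76, 1.77 and 1.38 RPKM with DMSO, the lowest of the 10 genes, and at 4.91, 5.15 and 4.77 RPKM with FP54. It rose 3.02 times, the largest change of the 10, with a log2 fold change of 1.55 (SE 0.13, adjusted p = 5.76e-06). WIPI1 lies on chromosome 17, 68420948 to 68457513, on the minus strand, and 829 of its 3403 exonic bases are shared with ARSG on the plus strand. ARSG also rose in NB4, from 0.795 ± 0.053 to 2.58 ± 0.026 RPKM (SD, n = 3, log2 fold change 1.59). Without knowledge of the strand setting of the counting, reads of WIPI1 and ARSG cannot be told apart in the shared bases.

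ATG5, ATG7 and ATG16L1 act in the conjugation of ATG8 proteins to membrane lipid. ATG7, the enzyme that activates both ATG8 proteins and ATG12, lies on chromosome 3, 11272309 to 11557665, on the plus strand. In MOLM-13 it lay at 6.59, 5.33 and 6.28 RPKM with DMSO and at 6.61, 5.90 and 7.25 RPKM with FP54, with overlapping groups and a log2 fold change of 0.12 (95% interval -0.23 to 0.46). In NB4 it lay at 3.50, 3.18 and 3.10 RPKM with DMSO and at 4.94, 5.13 and 5.24 RPKM with FP54. The NB4 groups were well apart, and ATG7 rose 1.57 times, a log2 fold change of 0.63 (SE 0.10, adjusted p = 0.000528). With quantile normalization this was 0.43, under the minimum fold. ATG7 shares 1597 exonic bases with VGLL4 on the other strand.

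ATG5, which is joined to ATG12, lies on chromosome 6, 106045423 to 106325791, on the minus strand. In MOLM-13 ATG5 lay at 9.30, 7.25 and 7.76 RPKM with DMSO and at 6.50, 5.58 and 8.01 RPKM with FP54, a log2 fold change of -0.28 (95% interval -0.67 to 0.11). In NB4 it lay at 10.1, 9.07 and 10.1 RPKM with DMSO and at 8.49, 9.73 and 9.29 RPKM with FP54, a log2 fold change of -0.09 (95% interval -0.30 to 0.12). The groups overlapped in both lines, and neither difference passed the test. ATG16L1, which carries the ATG5 conjugate to the membrane, lies on chromosome 2, 233210051 to 233295674, on the plus strand. In MOLM-13 it lay at 1.77, 2.05 and 2.03 RPKM with DMSO and at 2.15, 2.33 and 1.65 RPKM with FP54, and in NB4 at 4.32, 3.21 and 4.19 RPKM with DMSO and 3.67, 3.37 and 3.45 RPKM with FP54. The ATG16L1 groups overlapped in both lines, with log2 fold changes of 0.05 (95% interval -0.38 to 0.49) and -0.14 (95% interval -0.43 to 0.14).

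**Figure D3:**
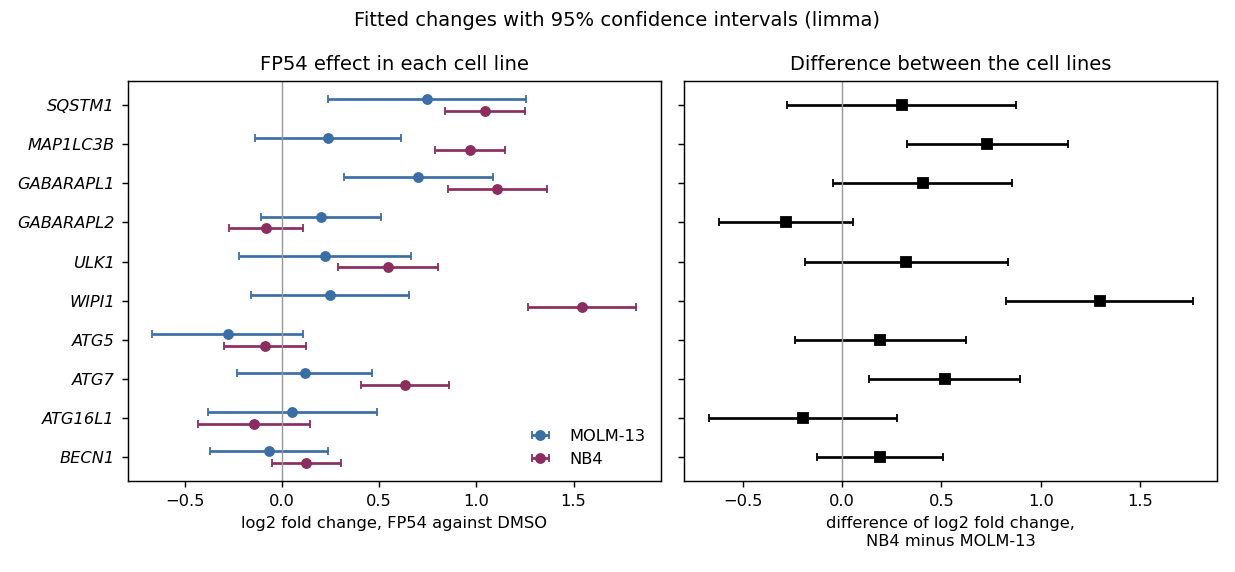
Log2 fold change of FP54 against DMSO for the 10 genes in MOLM-13 (blue) and NB4 (purple), left, and the difference between the lines, NB4 minus MOLM-13, right, with 95% confidence intervals from limma. In NB4 the intervals of 6 genes lie above 0, from ULK1 at 0.55 to WIPI1 at 1.55, and the difference is largest for WIPI1 at 1.30.

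Whether the lines differed in their response was tested as the difference of the log2 fold changes, NB4 minus MOLM-13, in 1 limma fit of the 12 libraries. Of 8849 genes tested in both tables, 14.2% differed at an adjusted p below 0.05, 10.5% with a higher response in NB4 and 3.75% with a lower one. Of the 10 autophagy genes, 2 passed, both higher in NB4: WIPI1, by 1.30 (SE 0.22, adjusted p = 0.00116), and MAP1LC3B, by 0.73 (SE 0.19, adjusted p = 0.0186). The MAP1LC3B difference missed the threshold without DMSO replicate 1, DMSO replicate 2 or FP54 replicate 2 of both lines, at 0.74, 0.64 and 0.55, with adjusted p-values of 0.0579, 0.0540 and 0.0745. For ATG7 the difference was 0.52 (95% interval 0.13 to 0.90, adjusted p = 0.0686). It passed the threshold with no filter (0.52, adjusted p = 0.0404) and without DMSO replicate 2 of both lines (0.59, adjusted p = 0.0412). The SQSTM1 difference was 0.30 (95% interval -0.28 to 0.88), that of GABARAPL1 0.40 (95% interval -0.05 to 0.86) and that of ULK1 0.32 (95% interval -0.19 to 0.84), so that each interval reached from below 0 to a difference larger than that of MAP1LC3B. GABARAPL2 had a difference of -0.28 (95% interval -0.62 to 0.06), and ATG5, ATG16L1 and BECN1 lay between -0.20 and 0.19.

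The order of levels by RPKM within a line also differed. An order between genes depends on the gene length used. SQSTM1 has 7535 exonic bases and ATG5 5655, against 2840 and 3185 in their canonical transcripts, and the order was not tested with other lengths. In MOLM-13 with DMSO, SQSTM1 was the highest of the 10 at 42.9 ± 12.3 RPKM (SD, n = 3), followed by GABARAPL2, BECN1 and MAP1LC3B, each below the lowest library of the one before. ATG5 and GABARAPL1 came next and overlapped, as did ATG7 and ULK1 after them, and WIPI1 and ATG16L1 were the lowest. In NB4 with DMSO, GABARAPL2, at 23.8 ± 1.87 RPKM, led MAP1LC3B, BECN1, ATG5 and SQSTM1 with no overlap between neighbours. ULK1, ATG16L1 and ATG7 overlapped in that order, and GABARAPL1 and WIPI1 were the lowest. With FP54, MAP1LC3B moved to the top in NB4 at 35.4 ± 1.19 RPKM, SQSTM1 overlapped with BECN1, WIPI1 overlapped with ATG7, and ATG16L1 became the lowest. In MOLM-13 with FP54, SQSTM1 and GABARAPL2 stayed at the top, and BECN1 overlapped with MAP1LC3B, which overlapped with GABARAPL1.

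GGAC, a common core of the sequence around m6A, the mark that FTO removes, was counted in the Ensembl canonical transcript of each gene, with a median of 3.76 matches per kilobase over 19919 transcripts. The 10 genes did not share one density. GABARAPL1 held 7.43 per kilobase, ULK1 7.14 and SQSTM1 7.04, which placed them at percentiles 91.7, 89.8 and 89.1 of these transcripts. MAP1LC3B, which also rose in NB4, held 1.40 per kilobase, and ATG5, which was not called, held 1.26. WIPI1 and ATG7, which rose in NB4, held 5.77 and 4.69. ATG16L1, BECN1 and GABARAPL2, which were not called, held 5.76, 4.74 and 3.08. Whether these letters carry the mark was not examined here.

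For genes called in at least 1 line, the genes with the most similar pattern were sought by Pearson's r of the log2 values, centred within each line, over the 12 libraries. They describe these libraries, which share treatment and depth, and carry no test. For SQSTM1 the closest of 8849 genes were ARAP1, LSP1 and HS6ST1 (r = 0.99, 0.98 and 0.98), and for MAP1LC3B they were DYM, CACNA2D4 and TTYH3 (r = 0.99, 0.98 and 0.98). WIPI1 was closest to TRAF1, DOCK6 and DDIT4 (r = 0.98, 0.98 and 0.97), and ATG7 to CPM, PGGHG and SEMA4A (r = 0.97 each). GABARAPL1 was closest to INPP5F, KHNYN and PPP1R16B (r = 0.99, 0.99 and 0.99), and ULK1 to INPPL1, ZNF358 and HSPG2 (r = 0.96, 0.96 and 0.95). None of the other 9 autophagy genes was among the 3 closest of any of these 6. Between pairs of these 6, r ran from 0.63 (SQSTM1 and ATG7) to 0.95 (SQSTM1 and GABARAPL1). All 6 were picked for a rise with FP54, which raises r between them.

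A further 75 genes of the route, in 10 groups by role, were read in the same fits. In MOLM-13, 65 were tested, and 8 were called higher and 1 lower, where 9.3% and 9.04% of all genes tested were called. The median log2 fold change of the 65 was 0.13, beside 0.0033 over all genes. In NB4, 64 were tested, and 12 were called higher and 2 lower, where 18.6% and 10.7% of all genes were called, so that the share called higher was near that of all genes. The median of the 64 was 0.22, beside 0.07 over all genes. At an adjusted p below 0.05 with no minimum fold, 9 of the 65 passed in MOLM-13, where 19.2% of all genes tested did. In NB4, 32 of the 64 passed in either direction, where 51.8% of all genes did, so this share was near that of all genes. Of the 64, 27 were higher and 5 lower, where 2935 and 2164 of all 9853 genes were.

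The genes called in both lines were ATG16L2, a relative of ATG16L1 in the conjugation group, and CALCOCO1, a receptor for endoplasmic reticulum. ATG16L2 lay at 9.35, 6.65 and 9.95 RPKM with DMSO and at 20.3, 21.6 and 20.5 RPKM with FP54 in MOLM-13, and rose by 1.28 on the log2 scale (adjusted p = 0.00228). In NB4 ATG16L2 lay at 4.33, 4.39 and 3.62 RPKM with DMSO and at 9.38, 9.34 and 9.62 RPKM with FP54, and rose by 1.19 (adjusted p = 9.62e-06). Its groups were far apart in both lines, unlike those of ATG16L1. ATG16L2 shares 680 of 8519 exonic bases with FCHSD2 on the other strand. CALCOCO1 rose from 21.0 ± 3.38 to 35.8 ± 7.91 RPKM in MOLM-13 (log2 fold change 0.75, adjusted p = 0.0233) and from 3.71 ± 0.0781 to 7.86 ± 0.244 RPKM in NB4 (log2 fold change 1.06, adjusted p = 9.21e-06). The CALCOCO1 call in MOLM-13 was lost without FP54 replicate 1, at 0.61.

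The 4 called genes of the list with the largest changes in NB4 were CCPG1, MAP1LC3B2, OPTN and BNIP3L, followed closely by ATG16L2. CCPG1, a receptor for endoplasmic reticulum, lay at 16.2, 12.9 and 11.7 RPKM with DMSO and at 64.5, 71.5 and 70.2 RPKM with FP54, and rose 5.05 times (log2 fold change 2.34, adjusted p = 2.39e-07). On the other strand, CCPG1 shares 443 of 8790 exonic bases with PIGB, OPTN 147 of 5138 with CCDC3 and BNIP3L 330 of 4149 with PNMA2. OPTN, which binds ubiquitinated mitochondria and bacteria, rose from 2.48 ± 0.264 to 8.63 ± 0.196 RPKM (log2 fold change 1.77). BNIP3L, a mitophagy receptor also induced in low oxygen, rose from 15.0 ± 1.56 to 35.0 ± 3.80 RPKM (log2 fold change 1.21). In NB4, 3 of the 5 tested receptors for endoplasmic reticulum, 2 of the 7 for mitochondria and 1 of the 7 other cargo receptors were called higher, where 18.6% of all genes were. In MOLM-13, 1 of 5, 1 of 7 and none of 7 were, where 9.3% of all genes were; of the last 7, 2 were higher at an unadjusted p below 0.05 with limma, and none was called with limma-voom.

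In MOLM-13 the other genes with the largest changes were EPG5, a tether that joins autophagosome and lysosome, which rose by 0.85 on the log2 scale (adjusted p = 0.0274), and ZKSCAN3, a repressor of autophagy genes, which rose by 0.78 (adjusted p = 0.0126). EPG5 lost its call without DMSO replicate 3, FP54 replicate 1 or FP54 replicate 3, at 0.73, 0.72 and 0.76. ZKSCAN3 was at 2.37 ± 0.272 RPKM with DMSO and 4.13 ± 0.208 RPKM with FP54 in MOLM-13, and at 1.94 ± 0.248 and 1.82 ± 0.0483 RPKM in NB4. The list also held 3 genes called lower, named here after their values were seen. RPTOR, a subunit of mTORC1, fell in MOLM-13 from 5.75 to 3.97 RPKM (log2 fold change -0.53). The RPTOR call was lost with a pseudocount of 1 (-0.44) and without DMSO replicate 1, DMSO replicate 3, FP54 replicate 1 or FP54 replicate 2 (-0.51, -0.52, -0.56 and -0.44). In NB4, PIK3R4, a subunit of the lipid kinase complex, fell from 8.95 to 6.19 RPKM (log2 fold change -0.51), and VAMP8, which acts in fusion with the lysosome, fell from 257.1 to 146.3 RPKM (log2 fold change -0.81). The PIK3R4 call was lost with a pseudocount of 1 (-0.45) and without DMSO replicate 1, DMSO replicate 3, FP54 replicate 1 or FP54 replicate 2 (-0.43, -0.43, -0.48 and -0.49).

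By role, the counts were small. Of all genes tested, 9.3% were called higher and 9.04% lower in MOLM-13, and 18.6% and 10.7% in NB4. The 8 tested genes of membrane supply, such as ATG9A and WIPI2, held no call in either line by limma. In NB4, 5 of these 8 were higher at an unadjusted p below 0.05, and in MOLM-13 1 was. At an adjusted p below 0.05, 4 of the 8 were higher in NB4, where 2935 of all 9853 genes were. In MOLM-13, 0 of the 8 were, where 955 of all 9710 genes were. By limma-voom, which could test 6 of them, none was called in NB4 and 1 was called higher in MOLM-13. The initiation complex beside ULK1 held 3 tested genes and no call by either tool, with 1 lower at an unadjusted p below 0.05 in NB4 and none in MOLM-13. Of 13 regulators tested in MOLM-13, 1 was called higher and 1 lower. Of 11 in NB4, 2 were called higher, which is near the share of all genes, and none lower. In NB4, 1 regulator was lower at an unadjusted p below 0.05 by either tool, and none was called lower by limma-voom. The regulators called in NB4 were TFE3 and FOXO3, both transcription factors known to act on autophagy and lysosome genes, named after their values were seen, with log2 fold changes of 0.67 and 0.58. FOXO3 was under the minimum fold with quantile normalization (0.445) and without DMSO replicate 2 (0.46). The response of the wider list differed between the lines for 7 of 62 genes, 5 of them higher in NB4. Over all genes tested in both, 14.2% differed and 10.5% were higher in NB4. The median difference of the wider list was 0.07 beside 0.083 over all genes tested in both.

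**Figure D4:**
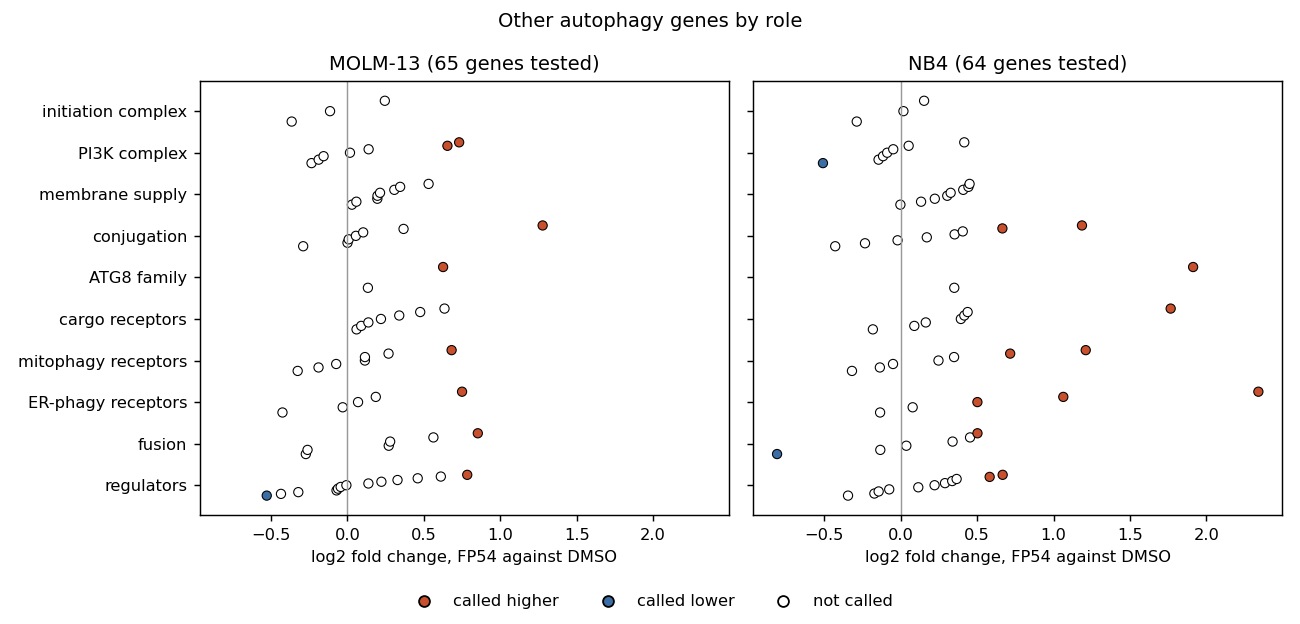
Log2 fold change of FP54 against DMSO (horizontal axis) for the other autophagy genes, 1 point per gene, in rows by role, in MOLM-13 (left, 65 genes) and NB4 (right, 64 genes). Red points were called higher (8 and 12), blue points lower (1 and 2) and open points not called, and CCPG1 among the receptors for endoplasmic reticulum lies farthest right in NB4 at 2.34.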

How the data were processed

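Per the labels and the study's methods, the authors selected poly(A) RNA in 2 rounds, made stranded total RNA libraries, trimmed reads with Cutadapt 4.8, removed duplicates with Clumpify, aligned to hg38 with STAR 2.7.11b and counted reads on protein-coding GENCODE genes with featureCounts 2.0.3. The strand setting, gene length and library total are not given in the sources used here. The deposited values are RPKM computed by the authors. Of 22 samples, 12 were used, and 10 of m6A-seq and polysome-seq were not analysed here.

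Gene lengths of GENCODE 44 turned RPKM back into reads, whole within 0.05 reads for 98.5 to 99.2% of low values per library and for 20035 (MOLM-13) and 19990 (NB4) of 20411 genes, used for depth and for limma-voom. Reads of all 10 genes were recovered. Deposited RPKM were tested with limma 3.58.1 (R 4.3.3, lmFit, eBayes with an intensity trend) on log2(RPKM + 0.1) for genes with a mean of at least 1 RPKM over 6 libraries, called where p was under 0.01 and the absolute change on the log2 scale was 0.5 or more, as in the study's methods. P-values are two-sided and adjusted by Benjamini-Hochberg over all genes tested. The difference between lines was an interaction term. With 3 against 3, the smallest p that exact permutation can reach is 0.1. Tables and figures used Python 3.11.15, numpy 2.4.6, pandas 2.3.3 and matplotlib 3.10.9, and the fit was tested on simulated data.

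All 10 genes are named. Of the 75 others, those called in both lines and the 4 called genes of largest absolute change in each line are named, and others were named after their values were seen. The 10 genes, the 75 and the markers were chosen with earlier results of these data known, and no pattern seen earlier is given as independent support. The alternatives were pseudocounts of 1 and 0.01, no filter, a minimum of 5 RPKM, 2 other scalings, a replicate block, eBayes without a trend or robust, limma-voom, subtraction of the olfactory receptor level, adjusted p in place of p, and leaving out each library.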

Additional observations from a re-analysis of the deposited data

Results flagged for a closer look

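The response to FP54 differed between the lines, by the interaction term of limma at an adjusted p below 0.05, for 2 of the 10 autophagy genes and for 7 of the 62 genes of the wider list tested in both. Over all 8849 genes tested in both, 14.2% differed, 10.5% with the higher response in NB4 and 3.75% with the lower one. Values are log2 fold changes, NB4 minus MOLM-13. For WIPI1 the difference was 1.30, from 0.25 in MOLM-13 and 1.55 in NB4, and for MAP1LC3B it was 0.73, from 0.24 and 0.97. For CCPG1 it was 2.27 (adjusted p = 2.84e-06), and CCPG1 stood at 13.6 ± 1.37 and 14.3 ± 1.81 RPKM (SD, n = 3) in MOLM-13. For BNIP3L it was 1.10 (adjusted p = 0.00116), and BNIP3L was far higher in MOLM-13, at 130 ± 23.1 RPKM with DMSO and 139 ± 3.90 RPKM with FP54. For OPTN it was 1.13 (adjusted p = 0.0188), from 0.64 in MOLM-13 and 1.77 in NB4. The OPTN difference missed the threshold with a pseudocount of 1 (0.85) and without DMSO replicate 3, FP54 replicate 1 or FP54 replicate 3 (1.10, 1.16 and 0.87). In MOLM-13 OPTN stood at 38.9 ± 10.2 RPKM with DMSO and 61.2 ± 19.0 RPKM with FP54. It was not called there in the main analysis, but was with the replicate block and without DMSO replicate 2 or FP54 replicate 3. For ZKSCAN3 it was -0.86 (adjusted p = 0.0089), with the higher response in MOLM-13. The other 3 are named here after their values were seen. For RPTOR it was 0.75 (adjusted p = 0.00577), from -0.53 in MOLM-13 and 0.22 in NB4, and it missed the threshold without DMSO replicate 3 (0.72). For BNIP3, a mitophagy receptor, it was 0.79 (adjusted p = 0.00304), from -0.07 and 0.72. For ATG14, a subunit of the lipid kinase complex, it was -0.60 (adjusted p = 0.0334), from 0.65 and 0.05, and it missed the threshold with the replicate block and when any library but DMSO replicate 2 was left out. Thus 7 of the 9 had the higher response in NB4, as did 926 of the 1258 genes that differed over all genes tested, so this lean was near that of all genes. Groups of 3 libraries were too small to look for single libraries that stand apart.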

How the results depend on the processing

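The count of the 10 genes called higher in MOLM-13, 2 in the main analysis, was 1 with no filter, with median-ratio scaling and without the trend, and 0 to 2 when each library was left out. In NB4 it was 6, became 3 with a minimum of 5 RPKM, since GABARAPL1, WIPI1 and ATG7 then were not tested, and was 5 to 6 when each library was left out. The number of the 10 with a response that differed between lines, 2, was 1 with a minimum of 5 RPKM and 1 with the replicate block, where the MAP1LC3B difference had an adjusted p of 0.0572, and 1 to 2 when libraries were left out (1 without DMSO replicate 1 or FP54 replicate 2). With no filter the ATG7 difference passed as well, and without DMSO replicate 2 it passed while that of MAP1LC3B did not. Of the wider list in MOLM-13, 8 higher became 5 with a minimum of 5 RPKM and 3 to 9 when libraries were left out (5 without DMSO replicate 3, 3 without FP54 replicate 1), and 1 lower became 0 with a pseudocount of 1, a minimum of 5 RPKM or the replicate block, where RPTOR had an adjusted p of 0.0728, and 0 to 2 when libraries were left out (0 without DMSO replicates 1 or 3 or FP54 replicates 1 or 2, 2 without DMSO replicate 2). In NB4, 12 higher became 27 and 2 lower became 5 with an adjusted p below 0.05 and no minimum fold, 2 lower became 1 with a pseudocount of 1, and leaving out libraries gave 10 to 15 higher and 1 to 2 lower (1 without DMSO replicates 1 or 3 or FP54 replicates 1 or 2). SQSTM1 in MOLM-13 had an adjusted p of 0.102 with no filter, 0.0604 with median-ratio scaling and 0.0632 without the trend. Small changes turned sign: ATG16L1 in MOLM-13 without DMSO replicate 1 (-0.011) or FP54 replicate 2 (-0.043; range over libraries left out -0.043 to 0.19), BECN1 in MOLM-13 without DMSO replicate 3 (0.0043; range -0.13 to 0.0043), CCPG1 in MOLM-13 without FP54 replicate 2 (-0.015; range -0.015 to 0.17), EPG5 in NB4 with quantile normalization (-0.073) the ATG16L2 difference without DMSO replicate 2 (0.13; range -0.29 to 0.13), ATG14 in NB4 with median-ratio scaling (-0.012), quantile normalization (-0.086) and without DMSO replicate 2 (range -0.039 to 0.13), and in MOLM-13 PIK3R4 without DMSO replicates 2 or 3 or FP54 replicate 3 (range -0.13 to 0.14), FOXO3 without DMSO replicate 2 or FP54 replicate 2 (range -0.18 to 0.11) and BNIP3 without DMSO replicate 2 (range -0.14 to 0.019). Quantile normalization moved the median of all genes in NB4 from 0.07 to -0.03, and 4 of the 10 were then called. Same-numbered libraries did not deviate together, with correlations of -0.26, -0.13 and -0.06 in MOLM-13 and -0.14, 0.07 and 0.12 in NB4. In MOLM-13, DMSO replicate 1 deviated with FP54 replicate 3 (0.59), DMSO replicate 2 with FP54 replicate 1 (0.49) and DMSO replicate 3 with FP54 replicate 2 (0.47). In NB4 the highest correlation was 0.22, between DMSO replicate 1 and FP54 replicate 3. What these libraries share was not tested, and the correlations cannot tell whether samples were paired. With the replicate block, 2 and 6 of the 10 were called higher in MOLM-13 and NB4. The cause of these shifts was not tested.

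FP54 replicate 2 of MOLM-13 gave the fewest reads, down to 82 for ATG16L1. Protein levels and autophagic flux were not measured in these tables.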
